A study of Mus musculus with 2 samples.

Results

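The clustered replication-dependent histone genes were taken as all gene models whose symbol starts with Hist1h, Hist2h, Hist3h or Hist4h and that had at least 50 unique molecular identifiers (UMIs, one count per captured RNA molecule) over both libraries. Of 67 such symbols among 32285 gene models, 54 met this minimum. The last gene inside it was Hist1h4b with 57 UMIs and the next outside was Hist1h4f with 36. The 54 genes held 103423 UMIs, and the 13 genes left out held 97 in the CEP library and 77 in the Vehicle library.

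Histones are the proteins around which DNA is wound. Cells that copy their DNA need new core histones (H2A, H2B, H3 and H4) and linker histone H1 in bulk during S phase, and this demand is met by many small genes without introns, arranged in clusters. Most of their mRNAs lack a poly(A) tail and end instead in a short stem-loop that is bound by Slbp and lost when DNA synthesis stops. Replacement variants such as H2A.Z and H3.3, in contrast, come from genes with polyadenylated mRNA that are transcribed outside S phase as well. Some clustered genes can also give polyadenylated mRNA in cells that have left the cycle. The libraries described here were primed on poly(A), so the UMIs of a stem-loop gene count only the molecules captured by such priming, at an efficiency that may differ from gene to gene.

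The study compared mouse tumours of a cepharanthine group (CEP), named for a plant alkaloid, with those of a vehicle group (Vehicle, spelled Vehide in the labels), and its title links the compound to PKC zeta, NF-kB and PARP1. Strain, age, genotype, tumour line, dose and duration are not stated in the labels. Tumours were dissociated and enriched for CD45-positive cells, and 5 biological replicates per group are stated. Cells could not be assigned to animals, so each group is 1 library of pooled cells, no test between groups was possible, and all intervals are 95% intervals of counting error only.

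Cells were read in 3 classes set by raw UMIs: macrophages (C1qa, C1qb and C1qc together at least 10), T cells (Cd3d, Cd3e and Cd3g together at least 2, C1q under 3) and epithelial cells (Krt8 and Krt18 together at least 10, C1q under 10). A cell was called cycling when Mki67 and Top2a together had at least 3 UMIs and non-cycling when they had 0. In macrophages this gave 603 cycling and 2879 non-cycling CEP cells and 727 cycling and 3114 non-cycling Vehicle cells. Among T cells there were 16 cycling and 141 non-cycling CEP cells and 16 cycling and 220 non-cycling Vehicle cells, and among epithelial cells 248 cycling and 412 non-cycling CEP cells and 25 cycling and 69 non-cycling Vehicle cells. Cycling cells were deeper: median depth was 15983 against 8598 UMIs in CEP macrophages and 17563 against 9701 in Vehicle macrophages. Levels are therefore given as UMIs per 1000000 UMIs of the same cells (CPM). Because a molecule is counted once whatever its length, CPM values of different genes need no correction for length, but they compare captured molecules only.

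The macrophage gate carried the macrophage markers Csf1r at 504 and 554, Adgre1 at 73.4 and 76.2 and Cd68 at 332 and 377 CPM in cycling CEP and Vehicle cells, and the epithelial gate carried its list (Epcam, Krt19, Krt7, Cdh1, Cldn4, Cldn7, Elf3) at 2188 and 2930.4 CPM with Ptprc, the gene of CD45, at 0.994 and 0.918 CPM. The T cell gate carried all 8 T cell markers, at 1715 and 1409.9 CPM in cycling cells. It also carried the neutrophil list (S100a8, S100a9, Csf3r, Retnlg, Cxcr2) at 17538 and 43418 CPM in cycling and 36157 and 38791 CPM in non-cycling cells, against 120439 and 128868 CPM in cells gated as neutrophils. The neutrophil gate took S100a8 and S100a9 together at least 20, C1q under 3, Krt8 and Krt18 under 3 and no Cd3 UMI. Only its cells without Mki67 and Top2a UMIs were used for neutrophil values. In the cycling T cells Csf1r stood at 15.7 and 14.1, Adgre1 at 0 and 0 and Cd68 at 54.8 and 28.2 CPM. The part of these other cells' RNA in the T cell values below was not tested, and with 16 cycling cells per library the T cell values are the least certain. The libraries shared 136 barcode sequences, and leaving those cells out moved no summed ratio outside its counting interval.

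The members lie in 4 clusters. The Hist1 cluster on chromosome 13 (chr13:21715763-23764406, GRCm38) holds 43 of them with 92816 UMIs. The Hist2 cluster on chromosome 3 holds 8 with 8360, Hist3 on chromosome 11 holds 2 with 507, and Hist4h4 on chromosome 6 stands alone with 1740. By protein there are 5 H1, 13 H2A, 15 H2B, 10 H3 and 11 H4 genes. The 5 H1 genes took 53.1% of all histone UMIs, and the 12 genes with most UMIs took 84.9%. These were Hist1h1e (17943 UMIs), Hist1h1b (14886), Hist1h1c (13712), Hist1h2ae (12199), Hist1h1d (5632), Hist2h2ac (3963), Hist1h4d (3895), Hist1h2bc (3831), Hist1h4i (3622), Hist2h2bb (3064), Hist1h1a (2745) and Hist1h2ap (2315). The counts of 18 members are uncertain because over 50% of the 90-base windows of their annotated transcript also occur in another gene's transcript. Together these 18 held 7.22% of histone UMIs. Hist1h1e and Hist1h2be, in addition, overlap on the same strand.

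The stem-loop that marks this gene family was looked for in the GENCODE transcripts, in the 150 bases after the stop codon, as 16 bases whose outer 6 on each side can pair (G with T included) and that differ from the most frequent form at 3 bases at most. It was found in 37 of the 54 members, and the forms are shown because they differ between histone types. Capitals mark the stem, 6 bases on each side, and lower case the 4-base loop. The 22 genes with the most frequent form include Hist1h1c, Hist1h1d, Hist1h1e, Hist1h2ae and Hist1h2ap, and the other forms shown belong to the members named.
22 genes, among them Hist1h1e: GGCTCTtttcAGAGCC
Hist1h3e, Hist1h3c, Hist1h3f, Hist1h2bb and Hist1h2bk: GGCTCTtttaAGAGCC
Hist1h4d, Hist4h4, Hist1h4h, Hist1h4c and Hist1h4n: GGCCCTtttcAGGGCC
Hist1h4i and Hist2h4: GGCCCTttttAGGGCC
Hist2h2ac: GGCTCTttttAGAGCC
In 20 members the annotated transcript runs more than 100 bases past the stem-loop, as for Hist1h1e (1153 bases), Hist1h1c (840 bases) and Hist1h4d (770 bases), and these are called extended below. In 17 it ends within 100 bases. In the other 17 no stem-loop was found, and 13 of those transcripts are annotated to end within 50 bases of the stop codon.

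The coding sequences differ in how rich they are in A, on which an oligo-dT primer could also anneal. The most A-rich stretch of 20 coding bases held 11 to 14 A in the 5 H1 genes, 9 to 12 in H2A, 10 to 12 in H2B, 7 to 8 in H3 and 8 in every H4 gene. Stretches from the 2 H1 genes with most UMIs and from 1 H4 gene are shown, with A in capitals.
Hist1h1b: AAgAAgAAgAcAAcgAAAAA
Hist1h1e: AAAAccgcAgccAAgAAAAA
Hist1h4d: AAcAtccAgggcAtcAccAA
The H1 genes, the type with the highest median count of A, held 54918 of the 103423 histone UMIs. Single genes did not all follow this order. Hist3h2ba, Hist2h2be and Hist2h2ab reached 12 A with 227, 155 and 149 UMIs, and Hist1h2ae reached 9 with 12199. Whether priming inside the coding sequence contributed to any of these UMIs was not tested.

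Promoters were matched in RefSeq (GRCm38.p6) for 48 of the 54 members and searched on both strands in the 250 bases before the start site. CCAAT, a box bound by NF-Y, was in 40 of the 48, against 33.8% of 32851 promoters of the same length. The octamer ATTTGCAT, a site of Oct-1 known from H2B promoters, was in 10 of 48, all of them H2A (5 of 12) or H2B (5 of 13) genes, against 1.6% of all promoters. The TATA box TATAAA was in 24 of 48 against 12.4%. AAACACA, the box of H1 promoters, was in 6 of 48 against 6.25%, and 4 of these 6 were H1 genes. The other 2 were Hist1h2ab and Hist1h2bm, and the H1 gene without these letters was Hist1h1a. Some neighbouring H2A and H2B genes on opposite strands share promoter bases, so the same site can be counted for both. The octamers of Hist1h2ae and Hist1h2bg, for example, are the same bases. The last 130 bases up to the start site are printed for the 5 H1 genes and for 2 H2B genes with an octamer, with matches to these 4 motifs on either strand in capitals.
Hist1h1a: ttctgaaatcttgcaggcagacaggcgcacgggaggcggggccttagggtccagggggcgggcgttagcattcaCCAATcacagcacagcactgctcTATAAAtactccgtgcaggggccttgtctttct
Hist1h1b: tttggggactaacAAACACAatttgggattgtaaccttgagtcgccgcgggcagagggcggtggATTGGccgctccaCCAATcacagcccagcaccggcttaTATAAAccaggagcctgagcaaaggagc
Hist1h1c: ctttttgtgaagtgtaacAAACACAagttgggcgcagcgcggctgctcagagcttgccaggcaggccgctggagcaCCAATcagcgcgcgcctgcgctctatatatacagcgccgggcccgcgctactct
Hist1h1d: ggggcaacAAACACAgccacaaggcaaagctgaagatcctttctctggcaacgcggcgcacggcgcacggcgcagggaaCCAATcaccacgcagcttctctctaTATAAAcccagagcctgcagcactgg
Hist1h1e: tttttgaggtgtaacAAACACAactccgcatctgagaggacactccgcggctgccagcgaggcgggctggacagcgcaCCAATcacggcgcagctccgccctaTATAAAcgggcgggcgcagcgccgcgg
Hist1h2bm: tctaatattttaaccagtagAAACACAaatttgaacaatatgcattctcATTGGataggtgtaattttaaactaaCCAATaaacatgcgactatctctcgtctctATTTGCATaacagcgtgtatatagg
Hist2h2bb: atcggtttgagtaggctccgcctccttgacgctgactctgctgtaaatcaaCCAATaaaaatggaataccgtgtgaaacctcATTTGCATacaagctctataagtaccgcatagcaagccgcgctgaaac
In the same order these stretches are chr13:23763538-23763667 on the plus strand, chr13:21780626-21780755 on the minus strand, chr13:23738677-23738806 on the plus strand, chr13:23554902-23555031 on the plus strand, chr13:23622559-23622688 on the minus strand, chr13:21721914-21722043 on the plus strand and chr3:96269570-96269699 on the plus strand. A match of letters is a description and was not tested as a binding site.

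The first comparison set cycling against non-cycling cells of the same class. Summed over the 54 genes, histone RNA stood at 1811 (1785 to 1837) CPM in cycling and 199.9 (194 to 205) CPM in non-cycling CEP macrophages. In Vehicle macrophages the sums were 2013 (1988 to 2037) and 243 (237 to 249) CPM. The log2 ratios were 3.18 (3.13 to 3.22) and 3.05 (3.01 to 3.09), so the 2 libraries gave nearly the same contrast, about 9.06-fold and 8.28-fold. Of the members with at least 20 UMIs over both states, 47 of 51 were at least 2-fold higher in cycling CEP macrophages, against 11.3% of 12341 genes tested, and 48 of 53 in Vehicle, against 8.06%. The median member had a log2 ratio of 3.38 and 3.35, where the median of all genes was 0.14 and 0.10. The minimum favours members that are high in cycling cells, so these counts describe the measured members and not all 54. At least 2-fold lower in cycling cells stood 1 member in CEP, Hist2h3c1, and 0 in Vehicle, against 2.12% and 2.95% of all genes.

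Epithelial cells showed the same contrast, with 1455 and 766 CPM in cycling CEP and Vehicle cells against 149 and 137 CPM in non-cycling ones. Their log2 ratios were 3.28 (3.20 to 3.36) and 2.48 (2.26 to 2.70). In CEP, 33 of 35 members were at least 2-fold higher in cycling cells against 6.74% of genes, and in Vehicle 9 of 11 against 6.7%. Lower by 2-fold or more stood 0 members in either library, against 3.63% and 5.75% of genes. T cells had 2134 and 3786 CPM in cycling and 289 and 309 CPM in non-cycling cells, log2 ratios of 2.89 (2.62 to 3.15) and 3.61 (3.39 to 3.84). All 8 members measured there in each library were at least 2-fold higher, against 9.76% and 9.38% of genes, and 0 were lower, against 11.7% and 14.6%. Neutrophils without Mki67 and Top2a UMIs had 371 and 443 CPM, above the non-cycling cells of the 3 classes. The level in non-cycling cells was therefore not 0 in any class.

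**Figure D1:**
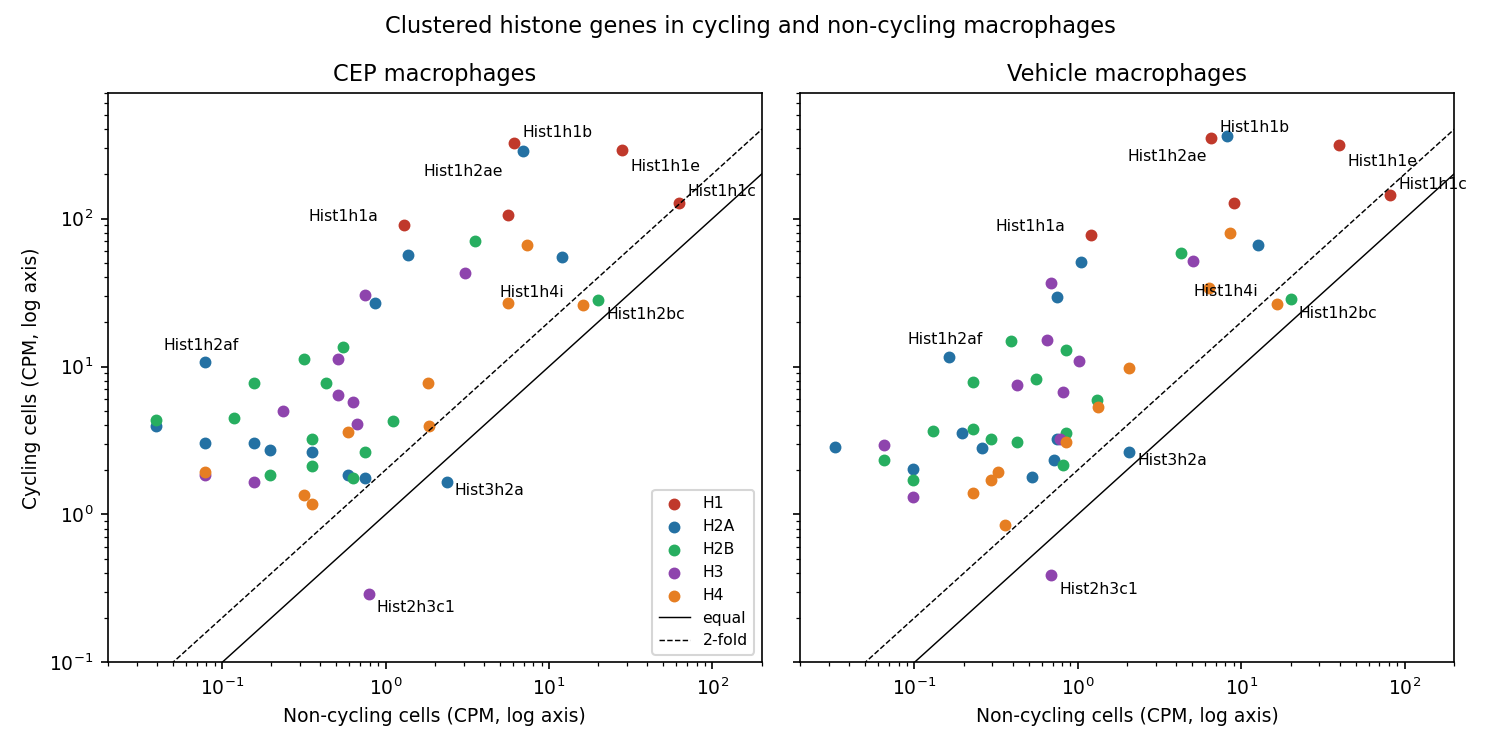
Each point is 1 histone gene with at least 20 UMIs, with its level in non-cycling (x axis) and cycling (y axis) macrophages in CPM on log axes, colours marking the histone type. Nearly all points lie above the dashed 2-fold line in both libraries, while Hist1h2bc, Hist1h4i, Hist3h2a and Hist2h3c1 lie under it in both and Hist1h1c in Vehicle.

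Linker histone H1 sits where DNA enters and leaves the nucleosome and compacts chromatin. Its 5 genes differed widely in their ratios. Hist1h1b (H1.5, chr13:21779883-21780625) was at 322 and 348 CPM in cycling CEP and Vehicle macrophages and at 6.15 and 6.55 CPM in non-cycling ones, log2 ratios of 5.71 (5.48 to 5.95) and 5.73 (5.53 to 5.94). Hist1h1a (H1.1, chr13:23763666-23764406) was lower in level, 90.1 and 77.5 CPM, but had a log2 ratio of 6.09 (5.61 to 6.66) and 5.99 (5.53 to 6.52), by the mean of both second only to Hist1h2af among the 51 members measured in both macrophage libraries. Hist1h1d (H1.3) and Hist1h1e (H1.4), at 106 and 128 and 292 and 315 CPM in cycling macrophages, had ratios of 4.24 and 3.83 and of 3.38 and 2.99. Hist1h1c (H1.2, chr13:23738808-23740367) differed from all 4: it was the histone gene with the highest level in non-cycling macrophages, 62.8 and 81.4 CPM, and reached only 128 and 144 CPM in cycling ones, a log2 ratio of 1.03 (0.92 to 1.14) and 0.82 (0.73 to 0.91).

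The makeup of H1 RNA shifted with the state of the cells. In non-cycling macrophages Hist1h1c gave 60.5% (58.6% to 62.3%) and 59.1% (57.6% to 60.6%) of H1 UMIs in CEP and Vehicle, and in cycling macrophages 13.7% (13% to 14.4%) and 14.2% (13.6% to 14.8%). Hist1h1b moved the other way, from 5.92% and 4.76% to 34.3% and 34.4%. Neutrophils resembled non-cycling macrophages, with Hist1h1c at 69% and 62.7% of H1 UMIs. In non-cycling epithelial cells Hist1h1e led instead, with 55.9% and 51.6%, and Hist1h1c gave 31.2% and 34.4%. The libraries lay close to each other in macrophages. In cycling epithelial cells the leading gene differed between them, with Hist1h1b at 41.5% and 37.7% and Hist1h1e at 37% and 48% in CEP and Vehicle.

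Hist1h1a was hardly detected in epithelial cells. Cycling CEP epithelial cells held 9 Hist1h1a UMIs among 7721 H1 UMIs (0.117%, interval 0.0533% to 0.221%), while cycling CEP macrophages held 925, a level of 0.994 against 90.1 CPM. In Vehicle, cycling epithelial cells held 0 Hist1h1a UMIs of 1089282, which allows up to 2.75 CPM (3 UMIs per library), so macrophages at 77.5 CPM were at least 28.2-fold higher. The log2 ratio of cycling macrophages over cycling epithelial cells in CEP was 6.42 (5.57 to 7.63). Of 51 members measured in that comparison, 10 were at least 2-fold higher in macrophages, against 18.9% of genes, Hist1h1a among them, and the other 9 had log2 ratios from 1.09 to 1.47. Only Hist3h2ba was at least 2-fold lower in the macrophages, -1.40, against 22.3% of genes. In Vehicle 34 of 49 were at least 2-fold higher in macrophages against 22.2% of genes, and 0 were lower against 21.1%. Cycling Vehicle macrophages held 12884314 UMIs against 1089282 in 25 epithelial cells, so members passed the minimum mostly through macrophages. Hist1h2ab and Hist1h2bp, for example, passed on 46 and 30 macrophage UMIs with 0 in epithelial cells. A single epithelial cell held 24.8% of the histone UMIs there, and these counts describe the measured members only. Cycling T cells held Hist1h1a at 5.14% and 4.60% of H1 UMIs, on 15 and 12 UMIs.

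**Figure D2:**
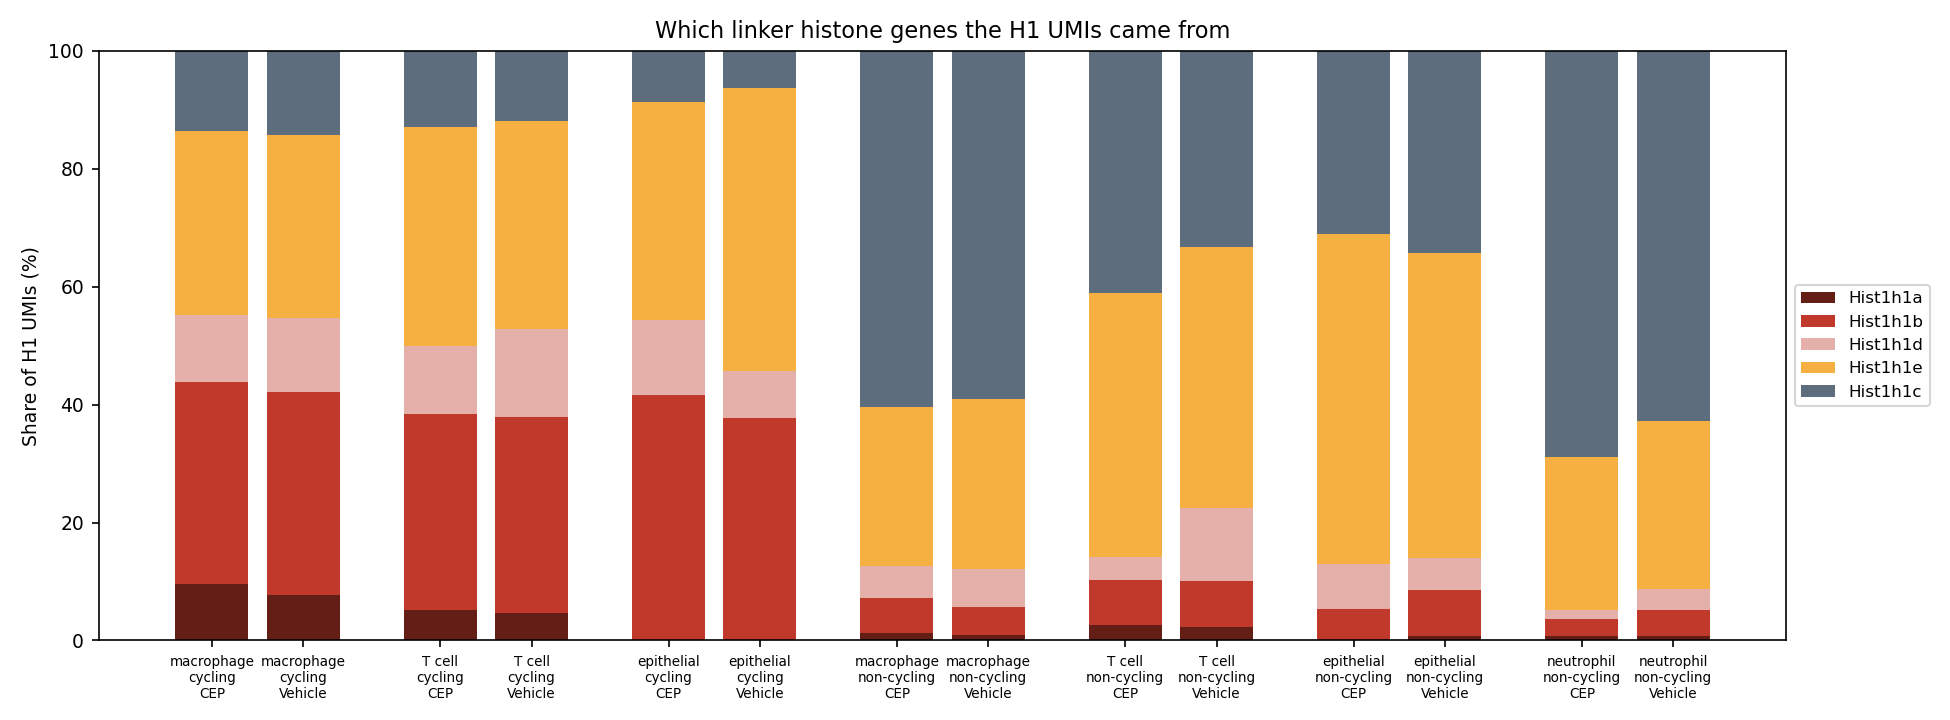
Bars show the share of H1 UMIs (y axis, in percent) that came from each of the 5 linker histone genes, for each cell class, state and library. Hist1h1c takes most of the bar in non-cycling macrophages and neutrophils and Hist1h1b and Hist1h1e most of it in cycling cells, and Hist1h1a is hardly visible in epithelial cells.

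H2A genes code for a core histone that pairs with H2B in the outer part of the nucleosome. In cycling macrophages, 12 of 13 CEP and 12 of 13 Vehicle measured H2A genes were at least 2-fold higher, with median log2 ratios of 4.11 and 4.09, and as a sum H2A had the highest ratio of the 5 types, 4.15 (4.03 to 4.27) and 4.30 (4.19 to 4.40). Hist1h2ae (chr13:23570517-23571220) was the most abundant core histone gene. It was at 287 and 359 CPM in cycling CEP and Vehicle macrophages and 6.93 and 8.21 CPM in non-cycling ones, a log2 ratio of 5.37 (5.15 to 5.60) and 5.45 (5.27 to 5.64). The highest ratio of all members was that of Hist1h2af, 6.77 (5.20 to 10.15) and 6.03 (4.90 to 7.80), resting on 2 and 5 UMIs in non-cycling cells, and Hist1h2an followed Hist1h1a with 6.10 (4.10 to 12) and 5.90 (3.89 to 11.80) on 1 such UMI in each library. Both share over 50% of their windows with other genes, as does Hist1h2ap (5.35 and 5.59). Hist2h2ac, the leading gene of the Hist2 cluster, had a lower ratio, 2.20 (1.99 to 2.40) and 2.39 (2.21 to 2.56), from 12 and 12.6 to 55.1 and 65.8 CPM. Hist3h2a, the leading gene of the Hist3 cluster, was at 1.66 and 2.64 CPM in cycling and 2.36 and 2.05 CPM in non-cycling macrophages, ratios of -0.48 (-1.38 to 0.28) and 0.37 (-0.28 to 0.99) that straddle 0.

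Among the H2B genes, 13 of 14 CEP and 14 of 15 Vehicle were at least 2-fold higher in cycling macrophages, with medians of 3.61 and 3.86. Hist2h2bb stood at 70.6 and 58.8 CPM in cycling and 3.51 and 4.27 CPM in non-cycling macrophages, log2 ratios of 4.32 (4.01 to 4.67) and 3.78 (3.52 to 4.06). The exception was Hist1h2bc (chr13:23684199-23692908), with Hist1h2be and Hist1h2bp one of the 3 members with a spliced transcript. It was at 28 and 28.6 CPM in cycling CEP and Vehicle macrophages and at 19.9 and 20 CPM in non-cycling ones, ratios of only 0.49 (0.27 to 0.70) and 0.52 (0.32 to 0.70). In epithelial cells its level was 11.9 and 8.26 CPM in cycling and 14.9 and 9.82 CPM in non-cycling cells, ratios of -0.32 (-0.70 to 0.05) and -0.22 (-1.62 to 1.04), both with intervals that hold 0. Neutrophils had the highest level of Hist1h2bc of the non-cycling groups, 56.4 and 64.6 CPM.

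H3 and H4 form the centre of the nucleosome. Of the H3 genes, 9 of 10 CEP and 9 of 10 Vehicle were at least 2-fold higher in cycling macrophages, with medians of 3.69 and 3.49. The leading gene was Hist1h3e, at 42.6 and 51.5 CPM in cycling and 3.07 and 5.08 CPM in non-cycling macrophages, ratios of 3.78 (3.44 to 4.16) and 3.34 (3.09 to 3.60). The H3 gene outside this pattern was Hist2h3c1, with -1.24 (-3.83 to 0.32) and -0.71 (-2.58 to 0.63). It had 3 and 5 UMIs in cycling macrophages, and all of its windows occur in another gene's transcript. H4 had the lowest medians of the 5 types in macrophages, 2.08 and 2.32, although 8 of 9 CEP and 9 of 10 Vehicle genes were still at least 2-fold higher. Hist1h4d went from 7.37 and 8.54 CPM in non-cycling to 66.2 and 80.0 CPM in cycling macrophages, ratios of 3.17 (2.93 to 3.41) and 3.23 (3.03 to 3.43), and Hist4h4 from 5.63 and 6.35 to 26.8 and 33.8 CPM, ratios of 2.25 and 2.41. Hist1h4i was higher than both of them in non-cycling macrophages, 16 and 16.6 CPM, and had a ratio of only 0.70 (0.47 to 0.93) and 0.67 (0.47 to 0.87). In epithelial cells, in contrast, Hist1h4i was at 6.47 and 3.93 CPM in non-cycling and 24.1 and 21.1 CPM in cycling cells, ratios of 1.89 (1.48 to 2.33) and 2.34 (1.09 to 4.01).

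**Figure D3:**
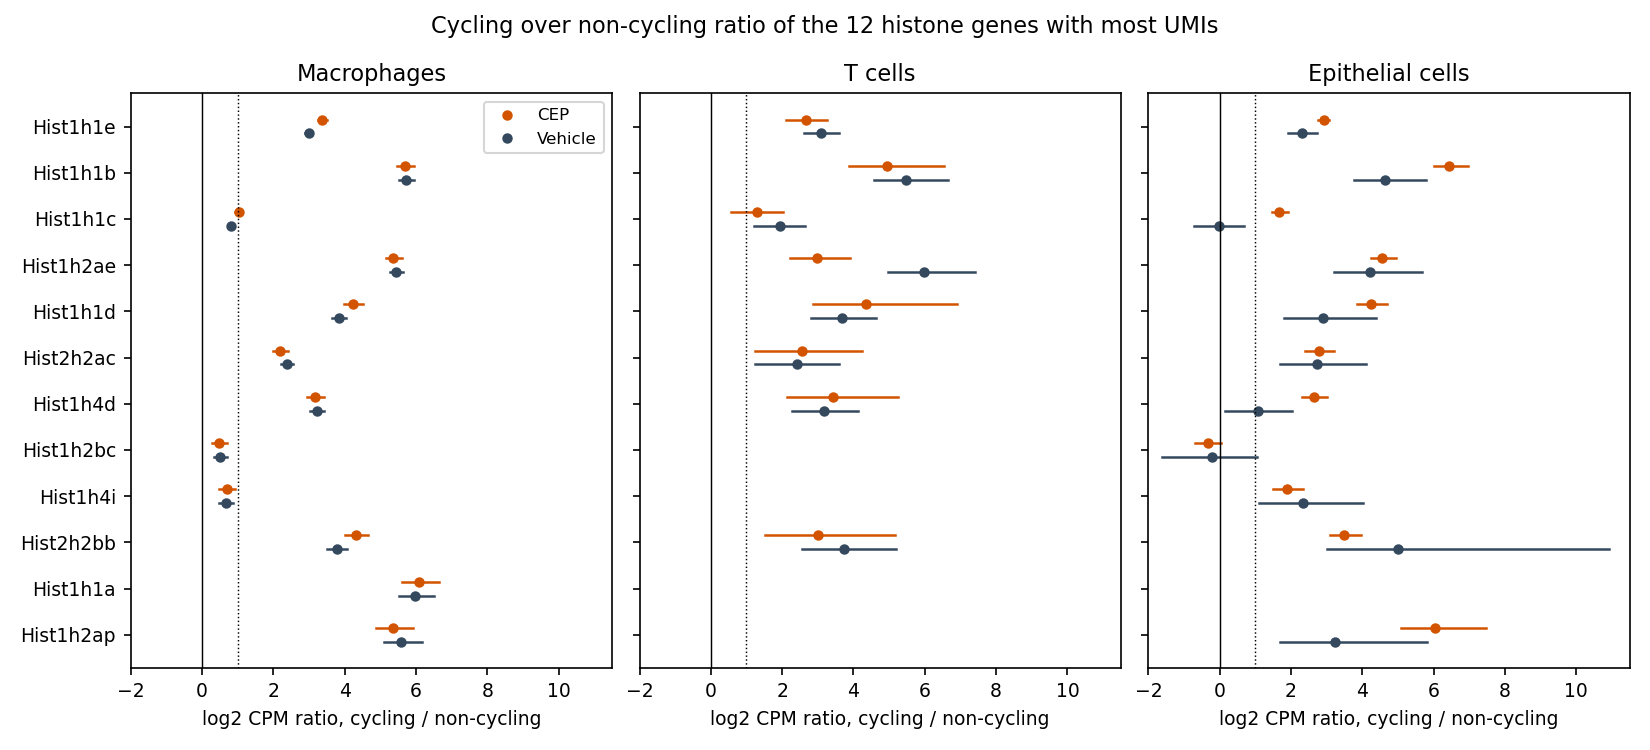
Points are the log2 CPM ratio of cycling over non-cycling cells (x axis) for the 12 histone genes with most UMIs, lines their 95% counting intervals, by class and library; members under 20 UMIs have no point, the solid line marks 0 and the dotted line 2-fold. Hist1h1c, Hist1h2bc and Hist1h4i sit near the dotted line in macrophages, while Hist1h1b, Hist1h1a, Hist1h2ae and Hist1h2ap lie above 5.

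In T cells and epithelial cells Hist1h1b stood at the upper end and Hist1h1c near the lower end again. By the mean of both libraries, among the 8 members measured in both T cell libraries the lowest ratio was that of Hist1h1c, 1.29 and 1.94, followed by Hist2h2ac (2.55 and 2.41) and Hist1h1e (2.66 and 3.10). The highest was that of Hist1h1b, 4.95 and 5.47, then Hist1h2ae (2.99 and 5.97) and Hist1h1d (4.34 and 3.67), although in Vehicle Hist1h2ae was above Hist1h1b and in CEP it was below Hist1h1d. Of the 11 measured in both epithelial libraries, Hist1h2bc was lowest, followed by Hist1h1c with 1.67 (1.46 to 1.90) and -0.01 (-0.73 to 0.68) and Hist1h4d with 2.65 and 1.06. By that mean Hist1h1b was highest again, 6.44 (6.0 to 6.96) and 4.62 (3.78 to 5.77), from 4.03 and 6.55 CPM in non-cycling to 354 and 169 CPM in cycling cells, with Hist1h2ap (6.05 and 3.24) and Hist1h2ae (4.57 and 4.22) next to it, while in Vehicle alone Hist2h2bb was higher, 5.01 (3.00 to 10.92). Besides Hist1h2bc, the members under 2-fold in epithelial cells were Hist1h4h in CEP (0.69, interval -0.26 to 1.71) and Hist1h1c in Vehicle.

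A list of 5 members known for polyadenylated mRNA in cells that have stopped dividing (Hist1h1c, Hist1h2bc, Hist2h2be, Hist3h2a, Hist4h4) had lower ratios as a sum than the other 49. The list was at 186 and 211 CPM in cycling and 91.4 and 111 CPM in non-cycling macrophages, log2 ratios of 1.03 (0.94 to 1.12) and 0.93 (0.86 to 1.0). The other members went from 109 and 132 to 1624 and 1802 CPM, ratios of 3.90 (3.85 to 3.96) and 3.77 (3.72 to 3.82). The list thus made up 45.7% and 45.6% of histone UMIs in non-cycling and 10.3% and 10.5% in cycling macrophages. It made up 46.2% and 41.2% in neutrophils. In epithelial cells its ratios were 1.2 (1.03 to 1.37) and 0.10 (-0.48 to 0.66) against 3.67 and 2.91 for the other members. Hist1h1c and Hist1h2bc held most of the list's UMIs, and Hist2h2be and Hist4h4 were at least 2-fold higher in cycling macrophages of both libraries.

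Members were also compared by their annotated 3′ end. In macrophages the 20 extended members had median log2 ratios of 2.56 and 2.45, those ending within 100 bases of the stem-loop 3.68 and 4.03 and those without a stem-loop in the annotation 4.67 and 3.78. In epithelial cells of CEP and Vehicle the medians were 2.65 and 2.32, 3.39 and 2.99 and 3.50 and 4.62. The ranges overlapped widely: extended members ran from -1.24 and -0.71 up to 5.37 and 5.45, the upper end being Hist1h2ae, whose transcript runs 151 bases past its stem-loop. The extended members held most of the histone level in non-cycling macrophages, 145 of 199.9 CPM in CEP and 186 of 243 CPM in Vehicle. Of this, Hist1h1c alone gave 62.8 and 81.4 CPM. They also held most of it in cycling macrophages, 1020 of 1811 CPM in CEP and 1196 of 2013 CPM in Vehicle.

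In macrophages and CEP epithelial cells the histone level was higher in most bins with more Mki67 and Top2a UMIs. In CEP macrophages it was 199.9 CPM at 0 of these UMIs, 254 at 1, 355 at 2, 768 at 3 to 5, 1559.7 at 6 to 10, 2487 at 11 to 20 and 2294 above 20. Vehicle macrophages went from 243 to 3138 CPM over the same range. In CEP epithelial cells it was 144 CPM at 1 and 156 at 2 of these UMIs, near the 149 CPM of cells without them, and then 267 CPM at 3 to 5, 903 at 11 to 20 and 2239.6 above 20. Vehicle epithelial cells, few in each bin, did not follow this order below 11 UMIs: they had 137 CPM at 0, 82 at 2, 104 at 6 to 10, 667 at 11 to 20 and 1169 above 20. Nor did CEP T cells, with 3936 CPM at 3 to 5 and 1275 at 6 to 10 on 2 and 6 cells. Epithelial cells were about 2 times as deep as macrophages, 35752 against 15983 UMIs in the median cycling CEP cell, so the same number of UMIs is a lower level there.

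Cycling cells were then split by phase. A cell was S-leaning when its UMIs of 20 S phase genes (Mcm2 to Mcm7, Pcna, Tyms and others) exceeded those of 20 G2/M genes (Ccnb1, Cdc20, Ube2c and others), and G2/M-leaning when they were fewer. In this split the histone sum of macrophages was not higher on the S side, with 1726 and 1861 CPM in S-leaning and G2/M-leaning CEP cells, and 1849.8 and 2091 CPM in Vehicle cells. The log2 ratios were -0.11 (-0.15 to -0.07) and -0.18 (-0.21 to -0.14). Per cell the libraries differed: the median S-leaning and G2/M-leaning cell held 23 and 20 histone UMIs in CEP and 17 and 26 in Vehicle. H1 differed from the core types: its sum was slightly higher in S-leaning macrophages, 0.15 (0.09 to 0.21) and 0.10 (0.05 to 0.15). H2A had -0.32 and -0.35, H2B -0.46 and -0.73, H3 -0.29 and -0.67 and H4 -0.68 and -0.47. The sum over all members had ratios of -0.21 and -0.76 in epithelial cells and of -1.0 and 0.21 in T cells. In each library, 132 and 118 cells lay near the limit, with an S share of the 2 sums between 0.4 and 0.6. Each side of the split is a range of a score and not a cell type.

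Bins of that S share, chosen after the split had been seen, show where the histone level was highest. In CEP macrophages the level was 1299 CPM at an S share under 0.2, 2209 at 0.2 to 0.4, 2588 at 0.4 to 0.6, 2414 at 0.6 to 0.8 and 490.4 above 0.8. Vehicle macrophages gave 1496, 2562, 3022, 3103 and 455 CPM in the same bins, and CEP epithelial cells 1049.5, 2004, 2341, 1991 and 306. All 3 groups had their highest level between 0.4 and 0.8 and their lowest where S phase genes dominated. The low last bin held 82, 115 and 46 cells, and Mki67 and Top2a were lower there too, 297 CPM in CEP macrophages against 714 in the middle bin. Pcna, a clamp of the replication fork, was at 191 CPM in that last bin and 38.3 in the first, and Ccnb1, a mitotic cyclin, at 7.07 and 140.2. Vehicle epithelial cells were too few for bins.

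**Figure D4:**
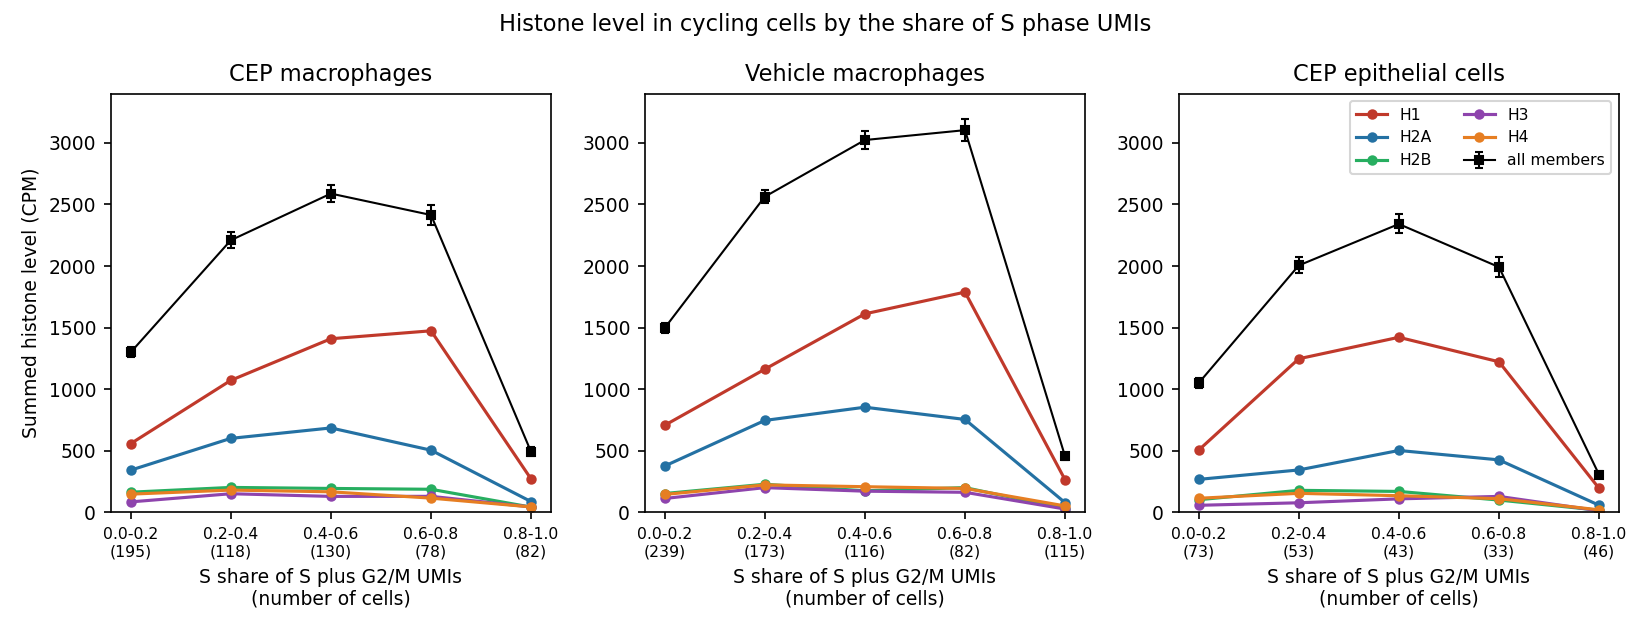
Lines give the histone level in CPM (y axis) of cycling cells binned by the S share of their S plus G2/M UMIs (x axis, number of cells in brackets), for all 54 genes with 95% counting intervals and for each histone type. In each panel the line of all 54 genes is highest between 0.4 and 0.8 and lowest above 0.8.

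The members did not all sit at the same place along this range. Of 41 members measured in both macrophage libraries, 29 were lower in S-leaning cells in both and 4 were higher in both. The share of all genes in each direction was not computed. The median log2 ratio of measured members was -0.28 and -0.52 in CEP and Vehicle, and that of all genes 0.03 and 0.02. At least 2-fold higher in S-leaning cells were 0 and 1 members, against 4.36% and 3.88% of genes. That 1 was Hist1h1a in Vehicle. Hist1h1a was at 121 CPM in S-leaning and 67.1 CPM in G2/M-leaning CEP macrophages, and at 113 and 56.3 CPM in Vehicle ones, log2 ratios of 0.85 (0.65 to 1.04) and 1.0 (0.82 to 1.19). Hist1h1b leaned the same way, 0.40 (0.30 to 0.50) and 0.57 (0.49 to 0.66). The opposite end was Hist1h2bc: 7.27 CPM in S-leaning against 41.7 CPM in G2/M-leaning CEP macrophages and 6.80 against 41.1 CPM in Vehicle ones, ratios of -2.50 (-3.13 to -1.97) and -2.57 (-3.18 to -2.06). Its level in S-leaning macrophages was thus under that of non-cycling macrophages (19.9 and 20 CPM), and its level in G2/M-leaning ones above it. Hist1h1c (-0.87 and -0.72), Hist1h4i (-0.91 and -0.61) and Hist1h4d (-0.64 and -0.67) were also lower on the S side. In CEP epithelial cells Hist1h2bc had a ratio of -0.99 (-1.70 to -0.35) and Hist1h1b one of 0.25 (0.15 to 0.35). At least 2-fold higher on the S side were 2 of 32 members there, Hist1h3i (1.44) and Hist2h4 (1.01), against 3.07% of genes, and 0 of 10 in Vehicle, against 4.34%. In T cells they were 0 of 6 and 0 of 7, against 12.3% and 5.18%.

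A few non-cycling cells held many histone UMIs. At least 10 were found in 39 of 2879 CEP and 83 of 3114 Vehicle non-cycling macrophages, and these cells held 9.95% and 15.9% of the histone UMIs of their group. These cells were also deeper, with medians of 10824 and 13689 UMIs against 8556.5 and 9596 in the rest. Their median of S phase UMIs was 2 in both libraries, against 1 and 2 in the rest. Their median of G2/M UMIs was 2 and 1, against 0 in the rest of both. Of 4 genes read in them, Hist1h1c was at 286 and 434 CPM, against 58.5 and 67.4 in the rest. Hist1h2bc was at 85 and 80.9 CPM, against 18.7 and 17.6 in the rest. Hist1h1b was at 78.8 and 28.1 CPM, against 4.74 and 5.69 in the rest, and Hist1h2ae at 53.9 and 27.3 CPM against 6.02 and 7.45. These cells were picked by their histone UMIs, so the levels are a description.

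Detection per cell was compared after thinning every cell to 2000 UMIs, to remove the difference in depth, and shallower cells were left out (141 and 133 non-cycling macrophages and 1068 and 1209 neutrophils of CEP and Vehicle, at most 3 per library and state in epithelial cells). At least 1 histone UMI was then found in 78.1% (74.6% to 81.3%) of cycling and 29.8% (28.1% to 31.5%) of non-cycling CEP macrophages, and in 78.9% (75.7% to 81.8%) and 35.1% (33.4% to 36.9%) of Vehicle ones. Unthinned, the shares were 97.2% and 97.1% in cycling and 66.2% and 74.5% in non-cycling macrophages of CEP and Vehicle. Cycling epithelial cells reached 62.9% (56.6% to 68.9%) and 48% (27.8% to 68.7%), and non-cycling ones 25.2% (21% to 29.7%) and 26.1% (16.3% to 38.1%). In neutrophils without Mki67 and Top2a UMIs the share was 44.9% (40.7% to 49.1%) and 47.9% (44.5% to 51.4%). Unthinned it was 44.5% and 53.8%, at a median depth of 1609 and 1769 UMIs. Whether neutrophil histone UMIs are free RNA or their own expression was not tested. Thinned, Hist1h1b was in 35.9% and 37.7% of cycling macrophages of CEP and Vehicle, 1.10% and 1.04% of non-cycling ones and 1.06% and 0.969% of neutrophils. Its share in non-cycling macrophages was thus near that in neutrophils. Hist1h1c was in 20.1% and 21.7%, 11.4% and 13.4% and 17.2% and 15.3%.

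Genes that work with the clustered histones were read from 5 lists. The 11 replacement variants did not move as 1 group: 5 of 11 and 6 of 11 were at least 2-fold higher in cycling CEP and Vehicle macrophages, against 11.3% and 8.06% of all genes, which is the background for every list count in macrophages here. H2afz, which codes for H2A.Z, was at 2378 and 2386 CPM in cycling and 844 and 824 CPM in non-cycling macrophages, log2 ratios of 1.49 and 1.53, while H3f3b and H3f3a, both coding for H3.3, had ratios of 0.56 and 0.44 and of 0.15 and 0.22. In level H3f3b exceeded all clustered genes, with 3363 and 3227 CPM in cycling and 2277 and 2371 CPM in non-cycling macrophages. In epithelial cells H2afz had ratios of 2.31 and 2.50 and H3f3b of 0.00 and -0.28. Of 12 genes for histone mRNA processing, 3 of 12 and 5 of 12 were at least 2-fold higher in cycling macrophages. Slbp, which binds the stem-loop, had ratios of 0.88 and 1.10, Eri1, a nuclease that trims it, 1.24 and 1.33, and Upf1, a helicase needed for histone mRNA decay, 0.31 and 0.21. All 8 chaperones, which carry new histones to DNA, were at least 2-fold higher in both libraries, with Rbbp7 at 1.57 and 1.55, Rbbp4 at 1.14 and 1.07 and Nasp at 1.43 and 1.63. In epithelial cells 5 of 8 chaperones were, in both libraries, against 6.74% and 6.7% of genes.

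Of the 20 S phase genes, 18 of 20 and 18 of 20 were at least 2-fold higher in cycling macrophages, against 11.3% and 8.06% of all genes, with median log2 ratios of 2.36 and 2.39, under the histone medians. Dut and Pcna had 2.44 and 2.12 and 1.49 and 1.5, and Mcm4, part of the replicative helicase, 0.86 and 0.91. All 20 G2/M genes passed 2-fold in both, with medians of 5.07 and 5.33, as for Ube2c (5.08 and 5.25), Birc5 (4.84 and 5.10) and Cks2 (2.80 and 2.95). Cells were gated on Mki67 and Top2a, so the height of these lists follows in part from the gate. Slbp did not share the low level of the histones in the last bin of S share. In CEP macrophages it was at 23.8 CPM at an S share under 0.2, 127 at 0.4 to 0.6 and still 100.3 above 0.8, where histone RNA was lowest.

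The second comparison set CEP against Vehicle within the same class and state. In cycling macrophages the histone sum was 1811 CPM in CEP and 2013 CPM in Vehicle, a log2 ratio of -0.15 (-0.18 to -0.13). The members stayed close to each other: of 52 measured, 3 were at least 1.5-fold lower in CEP against 2.38% of genes, and 0 were higher against 8.16%. The 3 were Hist1h3f (-1.12, interval -1.62 to -0.66), Hist3h2a (-0.65, interval -1.61 to 0.21) and Hist1h3b (-0.65, interval -1.55 to 0.16), all under 200 UMIs. By type, H1 had -0.11, H2A -0.23, H2B 0.04, H3 -0.32 and H4 -0.24. Sums of the S phase and G2/M lists differed by 0.04 and -0.08. Within S-leaning cells the histone ratio was -0.10 and within G2/M-leaning cells -0.17. The share of macrophages that were cycling was 14.6% (13.5% to 15.7%) in CEP and 15.8% (14.8% to 16.9%) in Vehicle. Epithelial markers stood higher in the cycling CEP macrophages, 150.3 and 41.1 CPM in CEP and Vehicle. So did the neutrophil list (278 and 121 CPM), fibroblast markers (Col1a1, Col1a2, Dcn, Pdgfrb, 56.0 and 0.931 CPM) and T cell markers (57.4 and 44.8 CPM). Natural killer cell markers (Ncr1, Klrb1c, Gzma) were lower, 4.38 and 11.4 CPM. The part of such RNA in the difference was not tested.

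Non-cycling macrophages had 199.9 CPM in CEP and 243 CPM in Vehicle, a log2 ratio of -0.28 (-0.33 to -0.23). At least 1.5-fold lower in CEP were 5 of 36 members against 2.74% of genes, and 0 were higher against 4.8%. They were Hist1h3f (-2.0, interval -3.65 to -0.81), Hist1h2ac (-1.03, interval -2.38 to 0.09), Hist1h3e (-0.72, interval -1.14 to -0.32), Hist1h1d (-0.68, interval -0.98 to -0.38) and Hist1h2bj (-0.60, interval -1.67 to 0.37). Hist1h1c, with 62.8 and 81.4 CPM the main source of histone UMIs there, had -0.37 (-0.47 to -0.28), and Hist1h2bc had 19.9 and 20 CPM.

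Epithelial cells went the other way in the cycling state. The sum was 1455 (1431 to 1480.4) CPM in 248 CEP cells and 766 (715 to 819) CPM in 25 Vehicle cells, a log2 ratio of 0.93 (0.83 to 1.03). Of 32 members measured, 20 were at least 1.5-fold higher in CEP against 9.78% of genes, and 1, Hist1h2bn (-0.87, interval -2.31 to 1.28), was lower against 8.09%. The CEP cells held 9051032 UMIs against 1089282 in Vehicle, so members passed the minimum mostly through CEP. Hist3h2ba and Hist1h2bh, for example, had 52 and 29 UMIs in CEP and 0 and 1 in Vehicle. The interval of Hist1h2bh (-0.79 to 7.16) held 0, and these counts describe the measured members only. Hist1h1b was at 354 CPM in CEP and 169 CPM in Vehicle (1.07, interval 0.85 to 1.29), Hist1h1d at 108 and 35.8 CPM (1.57, interval 1.13 to 2.09) and Hist1h2ae at 177 and 90.9 CPM (0.95, interval 0.67 to 1.27). All 5 types were higher in CEP, from 0.70 for H4 to 1.18 for H3. The median cycling cell held 21 histone UMIs in CEP and 11 in Vehicle, with the middle 50% of cells at 6.75 to 78.2 and 9 to 23, so cells of the 2 libraries overlapped.

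The Vehicle value rests on few cells. A single Vehicle cell held 24.8% of the histone UMIs. Without the top cell of each library the levels were 1423 and 595 CPM and the log2 ratio was 1.26 (1.14 to 1.38). That was the highest ratio of all alternatives run, and the lowest was 0.60. Neutrophil and fibroblast markers stood higher in the cycling CEP cells, 134.6 and 53.6 CPM against 5.51 and 2.75 in Vehicle. Dendritic cell markers (Flt3, Xcr1, Clec9a, Zbtb46) were lower, 2.98 against 3.67 CPM. The part of such RNA in the epithelial difference was not tested. The G2/M list was lower in the CEP cells (-0.41) and the S phase list near equal (0.04). Within S-leaning cells (96 and 11) the histone ratio was 1.28, and within G2/M-leaning cells (152 and 14) 0.73. Where the cells sat in the cycle and the treatment cannot be told apart with so few Vehicle cells. Both epithelial groups had passed a CD45 enrichment, which can set how many of them a library holds. Non-cycling epithelial cells differed less, 149 and 137 CPM, a log2 ratio of 0.12 (-0.09 to 0.34). There, 4 of 12 members were at least 1.5-fold higher in CEP (Hist2h2bb, Hist1h3e, Hist1h4i and Hist1h2ae) against 6.6% of genes, and Hist1h1b was lower (-0.75, interval -1.73 to 0.47) against 8.9%, each on 10 or fewer Vehicle UMIs.

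In cycling T cells the sum was 2134 CPM in CEP and 3786 CPM in Vehicle, a log2 ratio of -0.83 (-1.0 to -0.65) on 16 cells each. All 12 measured members were below 0, and 7 were at least 1.5-fold lower against 15.1% of genes (0 were higher, against 17%), with Hist1h2ae (-1.33, interval -1.82 to -0.85) and Hist2h2bb (-1.14, interval -2.17 to -0.16) the lowest. Per cell the libraries were alike, with medians of 34.5 and 29.5 histone UMIs at median depths of 13134 and 8094. With each cell thinned to 2000 UMIs the ratio turned to 0.24, and no direction is therefore given for T cells. Non-cycling T cells had 289 and 309 CPM, a ratio of -0.10 (-0.40 to 0.20), and of 5 members measured Hist1h2ae was at least 1.5-fold higher in CEP against 9.93% of genes and Hist1h4d and Hist2h2ac were lower against 10.8%, all under 20 UMIs in each library.

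**Figure D5:**
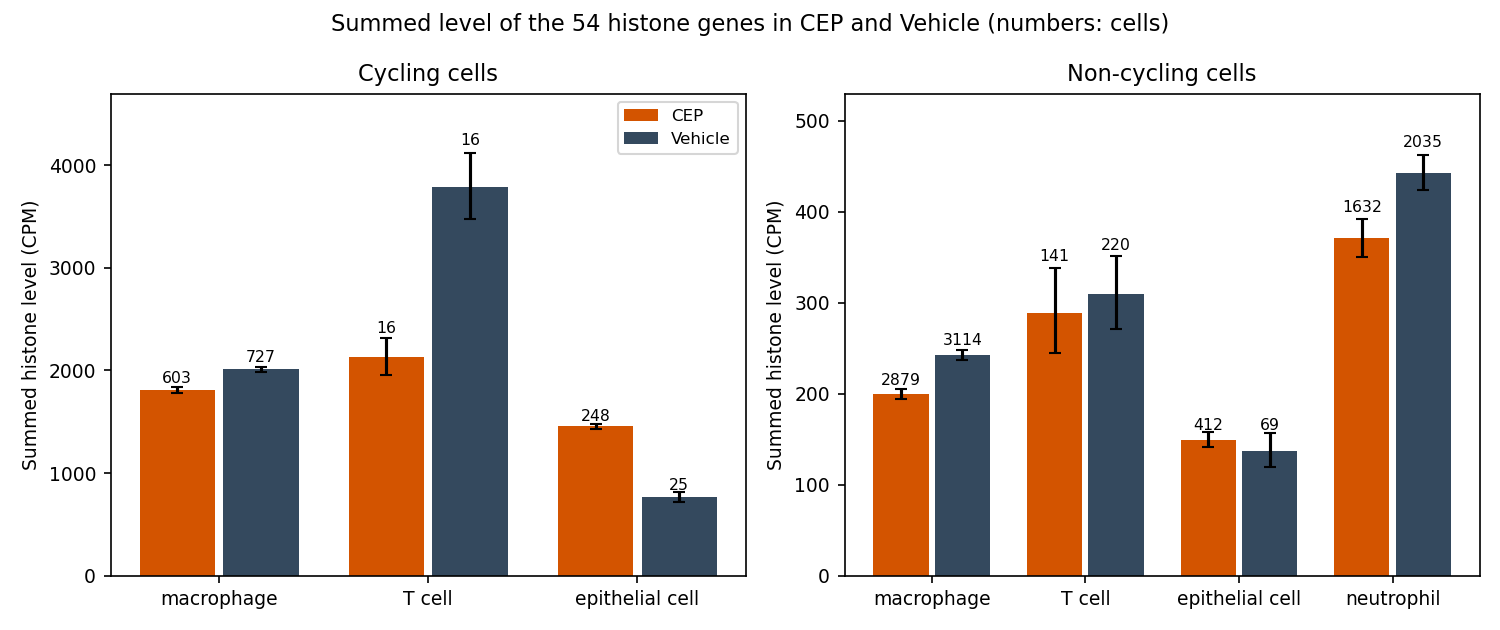
Bars give the summed level of the 54 histone genes in CPM (y axis, from 0) for each class and library in cycling cells and in non-cycling cells, with 95% counting intervals and the number of cells above each bar. The panels have separate scales: cycling cells lie between 766 and 3786 CPM and non-cycling cells between 137 and 443 CPM.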

How the data were processed

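The deposited 10x matrices hold counts of UMIs that were not normalized. The submitters' processing notes name mm10 and Cell Ranger 5.0.1, whereas 7.1.0 stands in the file headers; the intron setting was not given in the sources used here. No barcode had under 500 UMIs. Per the labels about 30000 cells per sample were loaded, and 9621 CEP and 9989 Vehicle barcodes with 88721774 and 81208647 UMIs were read. Barcodes under 200 genes or above 15% mitochondrial UMIs were dropped. Scrublet's automatic limit marked 1 and 0 cells, so cells above the limit of the highest 8% of scores were removed, leaving 8828 and 9210 cells. The T cell and epithelial gates shared 3 and 0 cells.

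UMIs were summed per library, class and state. Ratios of CPM add 0.5 UMI to each sum and need at least 20 UMIs over both sides; sums carry exact Poisson, ratios exact conditional binomial and shares Clopper-Pearson 95% intervals. Named genes were the 12 members with most UMIs, the 3 highest and 3 lowest ratios of each class, the leading member of each type and cluster, and the 3 genes of each list with most UMIs; other members are named where a count was 5 or fewer, and were chosen after their values were seen, as were the bins of S share and the cells with at least 10 histone UMIs. Alternatives were no doublet removal, a cycling gate of 6 UMIs, thinning, the mean of per-cell CPM, at most 10% mitochondrial UMIs, leaving out cells with markers of another class, and at least 50 UMIs for a ratio; all barcodes, barcodes of 1 library only, and the top cell left out were added after seeing the data. The members, gates and lists were chosen with earlier results of these data known. The ratio was tested on simulated data. Transcripts and coordinates are from GENCODE (GRCm38), which holds the Hist symbols of all 54 members, and promoters are from RefSeq (GRCm38.p6). RefSeq lists the 48 matched members under newer symbols, such as H1f1 for Hist1h1a, and they were matched by gene identifier or else by synonym. Software was scanpy 1.11.5, scipy 1.17.1 and numpy 2.4.6 under Python 3.11.15.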

Additional observations from a re-analysis of the deposited data

Results flagged for a closer look

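The CEP over Vehicle ratio of the histone sum in cycling cells had opposite directions in 2 pairs of classes. It was -0.15 in macrophages and 0.93 in epithelial cells, a difference of 1.08 on the log2 scale, and -0.83 in T cells, a difference of 1.75 from epithelial cells. Neither difference was tested, since each group is 1 library; the epithelial value rests on 25 Vehicle cells and the T cell value on 16 cells in each library. With cells thinned to 2000 UMIs the T cell ratio was 0.24, so its direction does not hold and the pair with T cells is given as values only.

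Hist1h2bc was higher in cycling than in non-cycling macrophages in both libraries (0.49 and 0.52) and had values below 0 in epithelial cells, -0.32 (-0.70 to 0.05) and -0.22 (-1.62 to 1.04), with intervals that hold 0 in both libraries. The log2 ratios differed by 0.81 in CEP and 0.73 in Vehicle. This difference was not tested, and the Vehicle epithelial value rests on 9 and 15 UMIs.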

How the results depend on the processing

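The summed ratios, the member counts and the CEP over Vehicle ratios were recomputed in 129 alternatives. Of these, 94 stayed within the counting interval or within 1.5 times the count, 34 moved and 1 turned in direction. Cycling over non-cycling ratios kept their direction in every alternative run. Without doublet removal, and equally with all deposited barcodes, they were 3.03 and 2.91 in CEP and Vehicle macrophages, and the CEP over Vehicle ratio of macrophages was -0.19. A gate of 6 UMIs gave 3.43 and 3.29 in macrophages, 3.88 in Vehicle T cells, 3.51 in CEP epithelial cells and -1.15 for CEP over Vehicle in T cells. Thinning gave 3.54 in CEP T cells and 3.18 in CEP epithelial cells, and CEP over Vehicle ratios of 0.24 in T cells, the value that turned, and 0.71 in epithelial cells. Means of per-cell CPM gave 3.01 and 2.98 in macrophages, 3.38 in CEP T cells, and CEP over Vehicle ratios of -0.17 in T cells and 0.60 in epithelial cells. Leaving out cells with markers of another class gave CEP over Vehicle ratios of -0.11 in macrophages, -0.43 in T cells and 0.62 in epithelial cells, and leaving out the top cell gave 1.26 in epithelial cells. The cause of these moves was not tested.

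Member counts moved where fewer members passed the minimum of 20 UMIs. After thinning, 17 and 18 members were at least 2-fold higher in CEP and Vehicle macrophages, 3 and 3 in T cells, and 10 and 0 in epithelial cells. With at least 50 UMIs they were 28 in CEP macrophages, 4 and 5 in CEP and Vehicle T cells and 3 in Vehicle epithelial cells, and 5 in CEP T cells without cells of other markers. No paired analysis was possible because each group is 1 library and the labels give no replicate numbers. Counting intervals leave out the spread between animals, and depth limits the T cell and Vehicle epithelial values most.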

Other observations

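The 13 clustered histone genes under the minimum of 50 UMIs stood at 1.09 CPM (0.887 to 1.33) over all CEP barcodes and 0.948 CPM (0.748 to 1.19) over all Vehicle barcodes. Among them were Hist1h1t, a linker histone of the testis, with 19 UMIs, Hist1h2aa with 13 and Hist1h2ba with 1, while Hist1h2bq and Hist1h4m had 0.

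The neutrophil gate itself held 2 and 7 cells of CEP and Vehicle with at least 3 UMIs of Mki67 and Top2a, and their median histone UMIs were 48.5 and 40, against 0 and 1 in the 1632 and 2035 cells without them.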
